A study of Homo sapiens with 16 samples.

Results

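Binding of BCL11A and ZBTB7A was examined at 10 genes that encode transcription factors of blood lineage choice: SPI1, CEBPA, CEBPB, RUNX1, FLI1, ERG, GFI1, GFI1B, IKZF1 and ETV6, out of 19343 protein-coding genes in the deposited annotation. The genes were taken by name. A listed region was assigned to a gene by its summit (WT and 195C>G) or its midpoint (BCL11A and K562), which had to lie in the promoter (within 1 kb of the start of a protein-coding transcript), in the rest of the gene body, or in the 50 kb on either side. These loci held 26 of 12911 BCL11A regions, 38 of 17331 ZBTB7A regions in K562 cells, 73 of 36435 in HUDEP-2 WT cells and 46 of 18784 in HUDEP-2 195C>G cells.

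The study used chromatin immunoprecipitation with sequencing (ChIP-seq), which finds the stretches of DNA held by a protein, in 8 ChIP and 8 control libraries. BCL11A was pulled down through a V5 tag from HUDEP-2, an immortalised human erythroid progenitor line, that carried the inducible fusion BCL11A-ER-V5 and had received 1e-07 M 4-hydroxytamoxifen for 24 h (2 ChIP and 2 control libraries). That list therefore reports the tagged fusion protein. ZBTB7A was pulled down with antibodies to the protein itself from K562, an erythroleukaemia line (4 and 4 libraries), and from HUDEP-2 (ΔGγ) cells labelled WT or 195C>G (1 ChIP and 1 control library each). The name 195C>G stands for a base change in the fetal globin promoter, and both of these lines carry ΔGγ. All HUDEP-2 cells were grown with SCF, EPO, dexamethasone and doxycycline. The sources used here do not say how many clones stand behind a line. The controls are called input in the titles and carry an IgG antibody label.

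The first 2 lists pool replicates and the other 2 come from 1 library each, so the spread between replicates is unknown. No depth is stated for any library, and intervals below cover counting error only. A rank is the place of a region in its own list, with rank 1 the first. For BCL11A it follows the authors' score and for WT and 195C>G their signal, so that rank 1 is the strongest region. The K562 file has no value per region, and its ranks follow the order of the file. That this order runs from strong to weak is an assumption, and K562 ranks, also where a region is called best-ranked, carry it throughout. Since the lists differ in length, a rank is read within its own list only and shows no gain or loss of binding. The files hold no RNA levels, so the labelled cell types could not be checked by expression. Promoter regions were listed for KLF1 and EPOR, a pair of erythroid markers, in all 4 lists, and for 1 of 5 myeloid markers in WT (CSF1R, rank 34922) and none elsewhere. Of 3 lymphoid markers only CD79A had one, in the 3 ZBTB7A lists, and of 4 megakaryocyte markers only ITGA2B, in K562 and WT.

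SPI1 (the protein PU.1), CEBPA and CEBPB drive myeloid genes, and PU.1 and the erythroid factor GATA1 hold each other in check. RUNX1, FLI1 and ERG act in blood stem cells and megakaryocytes. GFI1 and GFI1B are related zinc-finger repressors, GFI1 acting mainly in granulocytes and lymphocytes and GFI1B in red cells and megakaryocytes, while ETV6 is an ETS-family repressor and IKZF1 (Ikaros) is a zinc-finger factor of lymphoid cells. BCL11A and ZBTB7A are repressors known for silencing fetal globin, and ZBTB7A (LRF) is also known for directing B- against T-lymphoid fate.

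The promoters of 5 genes are shown because they carried listed regions and differ in the letters they hold: each is the 250 bases before a start (RefSeq, GRCh38.p14, read 5′ to 3′ on the gene's strand), with the ZBTB7A core GACCC, or GGGTC on the other strand, in capitals. They lie at chr20:50190333-50190582 (plus strand), chr19:33302535-33302784 (minus), chr21:34888700-34888949 (minus, the inner RUNX1 promoter), chr9:132978444-132978693 (plus, the inner GFI1B promoter) and chr12:11649424-11649673 (plus).
CEBPB: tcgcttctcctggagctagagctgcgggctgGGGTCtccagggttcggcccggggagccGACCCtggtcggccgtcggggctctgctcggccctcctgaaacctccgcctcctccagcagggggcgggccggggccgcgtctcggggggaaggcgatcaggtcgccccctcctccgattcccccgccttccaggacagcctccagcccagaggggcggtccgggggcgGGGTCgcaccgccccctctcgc
CEBPA: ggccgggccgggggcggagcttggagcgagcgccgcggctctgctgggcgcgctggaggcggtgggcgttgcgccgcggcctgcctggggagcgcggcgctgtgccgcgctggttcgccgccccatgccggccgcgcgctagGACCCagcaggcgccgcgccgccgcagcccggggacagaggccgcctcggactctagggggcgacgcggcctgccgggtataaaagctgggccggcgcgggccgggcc
RUNX1: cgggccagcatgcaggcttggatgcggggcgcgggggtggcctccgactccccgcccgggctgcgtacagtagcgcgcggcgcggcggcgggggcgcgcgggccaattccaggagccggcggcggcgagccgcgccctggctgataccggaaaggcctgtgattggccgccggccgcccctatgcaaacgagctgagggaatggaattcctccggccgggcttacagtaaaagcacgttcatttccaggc
GFI1B: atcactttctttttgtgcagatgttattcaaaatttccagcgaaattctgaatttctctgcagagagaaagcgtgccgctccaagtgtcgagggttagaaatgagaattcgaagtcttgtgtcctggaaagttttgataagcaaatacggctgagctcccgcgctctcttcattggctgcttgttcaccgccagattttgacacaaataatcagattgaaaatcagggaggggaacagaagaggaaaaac
ETV6: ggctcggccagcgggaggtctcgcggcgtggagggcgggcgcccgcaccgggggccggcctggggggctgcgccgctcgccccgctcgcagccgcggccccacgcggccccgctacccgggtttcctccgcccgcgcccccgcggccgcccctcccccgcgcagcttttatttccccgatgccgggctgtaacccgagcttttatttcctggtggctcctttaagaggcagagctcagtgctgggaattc

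The CEBPB window held 3 matches to the core, the nearest 18 to 22 bases before the start, and lay within the K562 region of rank 792. No WT or 195C>G region overlapped it. A second CEBPB window (50190580 to 50190829, not shown) held 1 match. It was overlapped by regions of ranks 792 (K562), 5099 (WT) and 1278 (195C>G). The CEBPA window held 1 match, 104 to 108 bases before the start, and was overlapped by regions of ranks 4492 (K562), 7775 (WT) and 10971 (195C>G). The RUNX1 window, overlapped by BCL11A (rank 7520) and K562 (rank 6380) regions, held no match, nor did those of GFI1B (WT rank 23998, 195C>G rank 9618) and ETV6 (K562 rank 11975, WT rank 20492 and 195C>G rank 7434). Over the 17 RefSeq windows of 8 of the genes, 7 held the core, beside 42.1% of all 35116 windows of the same length. The BCL11A motif TGACCA, or TGGTCA on the other strand, was in none of the 17, beside 9.19% of all windows. No window therefore held both motifs. Windows of 1 gene can overlap each other, and a match or its absence describes these letters only.

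At the promoters, ZBTB7A regions were listed for 8 of the 10 genes in K562 and in WT and for 5 in 195C>G, and BCL11A regions for 3. In K562 the 8 of 10 genes stood beside 33.2% of all protein-coding genes. The background was 44.9% in WT and 29.1% in 195C>G. BCL11A had a promoter region at 3 of 10, SPI1, RUNX1 and GFI1B, beside 24.4% of all genes, a share near that background. No BCL11A promoter region of the set was in the stronger 50% of its list, where 13.8% of all genes had one. SPI1 and GFI1B had a promoter region in all 4 lists, as did 10.0% of all genes, and FLI1 and ERG in none, as did 45.1%. CEBPA, CEBPB and ETV6 had one in the 3 ZBTB7A lists only, as did 9.95% of all genes. GFI1 and IKZF1 had one in K562 and WT only (4.36% of all genes), and RUNX1 in all but 195C>G (2.2%).

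**Figure D1:**
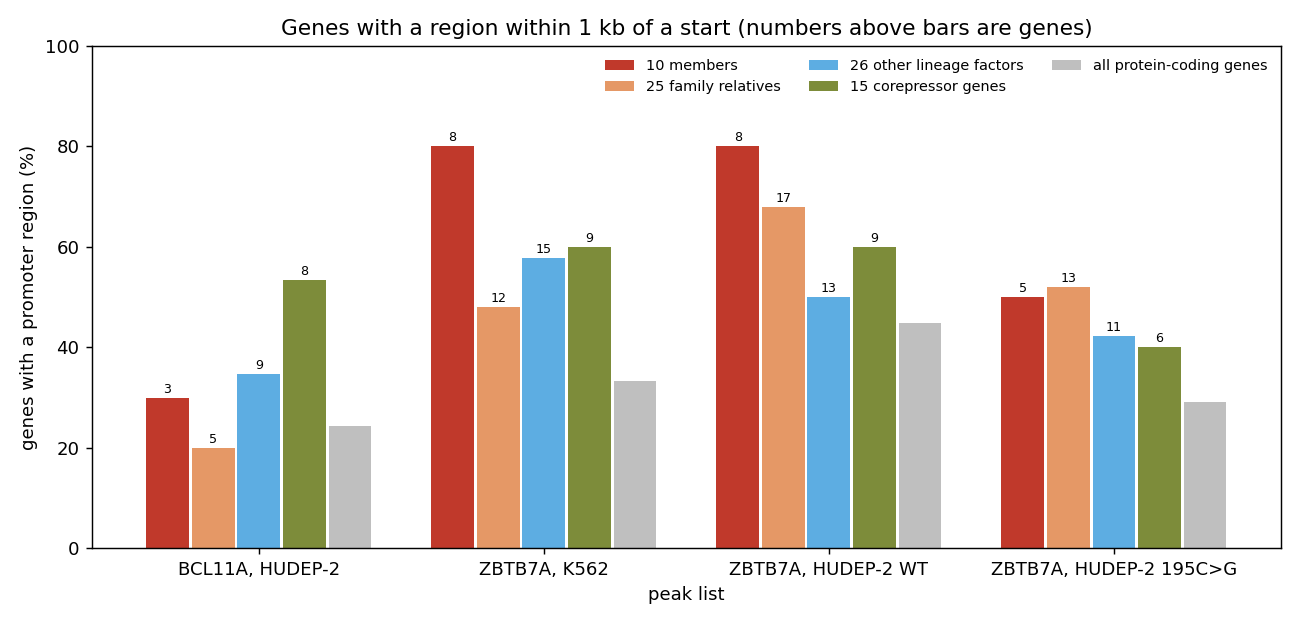
Percent of genes with a region within 1 kb of a start (y axis) in each peak list (x axis), for the 10 lineage factors, 3 lists of other genes and all protein-coding genes, with the number of genes above each bar. The 10 lineage factors reach 8 genes in K562 and in WT, 5 in the 195C>G list and 3 in that of BCL11A.

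Over whole loci, 7 of 10 genes had at least 1 BCL11A region (60.2% of all protein-coding genes), 8 a K562 region (67.7%), 9 a WT region (77.1%) and 9 a 195C>G region (64.8%). A gene of the set had a median of 8 regions in WT (all protein-coding genes 3), 5.5 in 195C>G (1), 3.5 in K562 (1) and 1.5 for BCL11A (1). Per 100 kb the loci held 1.23 BCL11A, 1.80 K562, 3.45 WT and 2.17 195C>G regions, against 1.00, 1.32, 2.56 and 1.28 over the loci of all genes. RUNX1 and GFI1B had the most listed regions with 33 each over the 4 lists, and SPI1 had 29. IKZF1 had 26, CEBPA and CEBPB 22 each, ERG 8, ETV6 6, GFI1 4 and FLI1 0. These totals count a place once for each list that holds it, and the loci differ in length. With both flanks, the locus spans 361 kb at RUNX1, 146 kb at GFI1B, 124 kb at SPI1 and 103 kb at CEBPA. Per 100 kb in WT, these 4 loci held 3.04, 6.84, 6.47 and 12.7 regions.

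**Figure D2:**
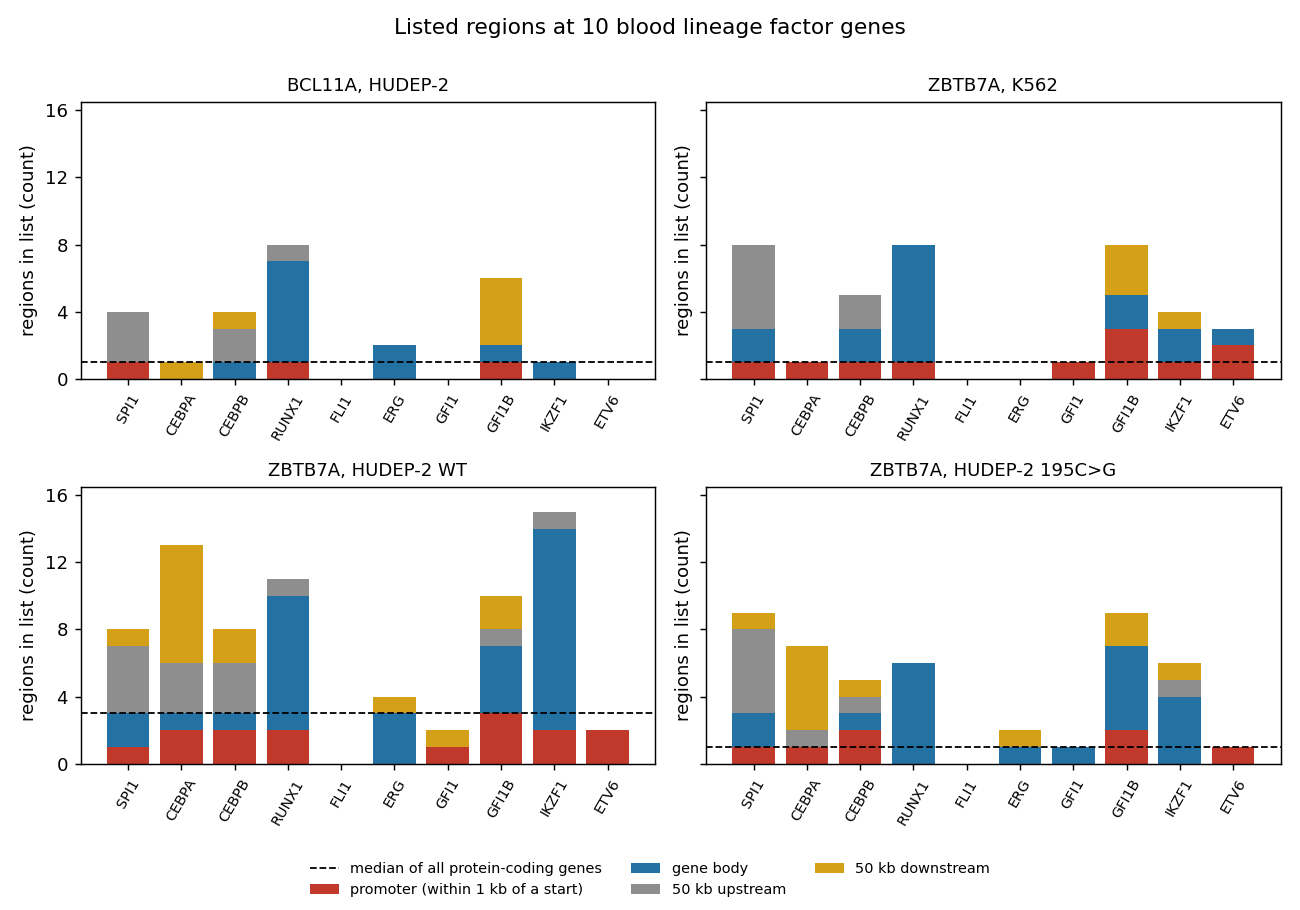
Number of listed regions (y axis) at each of the 10 genes (x axis) in the 4 peak lists, coloured by place, with the median over all protein-coding genes as a dashed line. FLI1 has none in any list, and IKZF1 has the most in WT, 15, with 1 in the BCL11A list.

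SPI1 had the best-ranked promoter of the 10 genes in each ZBTB7A list. On chromosome 11 its promoter region stood at rank 531 in K562 (47378244 to 47378908, hg38), at rank 844 in WT (signal 109) and at 402 in the 195C>G list (signal 137). Its summit or midpoint lay 0, 65 and 86 bp after the start, in the 5′ UTR. BCL11A had a region at the same start, 53 bp after it, with a score of 22.3 and rank 8544. The BCL11A region overlapped the K562 one, whereas the WT and 195C>G positions follow a modified chromosome 11 and were compared by distance alone.

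Upstream of SPI1 the ZBTB7A regions recurred at like distances. About 21.5 kb before the start stood a K562 region of rank 1158, a WT region of rank 5199 and a 195C>G region of rank 1081, at -21.53, -21.50 and -21.49 kb, and BCL11A had none there. Nearer, BCL11A had a region at -16.47 kb (score 16.8, rank 10993), K562 at -16.20 kb (rank 3628) and 195C>G at -16.12 kb (signal 41.6, rank 8719), and WT had none. SPI1 is known to be driven by an upstream enhancer in myeloid cells, and whether these regions are that enhancer was not tested. All 4 lists also had regions near -29.8 kb, which is the promoter of SLC39A13, a zinc transporter gene, at ranks 1408 (BCL11A), 2670 (K562), 2578 (WT) and 2711 (195C>G). Near -47.9 kb, at the promoter of the proteasome gene PSMC3, the ranks were 5548, 1856, 2047 and 2743. Within the gene, each ZBTB7A list had an intronic region near 1.8 kb and another near 4.4 kb, the latter at ranks 6286, 5930 and 4738, and BCL11A had neither.

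CEBPA, which starts granulocyte differentiation, had its highest-ranked regions far downstream, and only in HUDEP-2 lists. On chromosome 19 (hg38), WT had regions 39.07 kb after the start (33263294 to 33263623, signal 85.1, rank 1755), a little farther (33260786 to 33261075, signal 71.9, rank 2675) and 48.03 kb after it (signal 74.2, rank 2467). The 195C>G list had overlapping regions at all 3 places, with signals of 80.4, 86.4 and 83.6 and ranks 2127, 1759 and 1933. K562 had none of them: its only region at CEBPA was that of the promoter. BCL11A had 1 weak region at CEBPA, at 48.05 kb (score 14.2, rank 12337), which overlapped the WT and 195C>G regions there. A myeloid enhancer downstream of CEBPA is known, and whether these regions correspond to it was not tested. The promoter itself ranked lower, at 4492 in K562, 7775 in WT (signal 43.2) and 10971 among the 195C>G regions (signal 36.6).

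CEBPB, a factor of stress and late myeloid differentiation, had its best-ranked ZBTB7A regions over its own start on chromosome 20. The K562 region was 1263 bp wide (50190059 to 50191321, hg38) and stood at rank 792. In WT the best promoter region lay 234 bp after the start with a signal of 53.6 and rank 5099, and in 195C>G 236 bp after it with a signal of 97.4 and rank 1278, all 3 in the 5′ UTR. BCL11A had no region within 1 kb. Towards the 3′ end of the gene, which has a single exon, all 4 lists had overlapping regions, at ranks 5514 (BCL11A, score 33.8), 12839 (K562), 14976 (WT) and 7454 (195C>G). A K562 region upstream (50179155 to 50179482), of rank 1222, had no counterpart in the other lists. BCL11A had its best region of the locus at the promoter of TMEM189, 36.80 kb upstream (score 60.2, rank 2659).

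**Figure D3:**
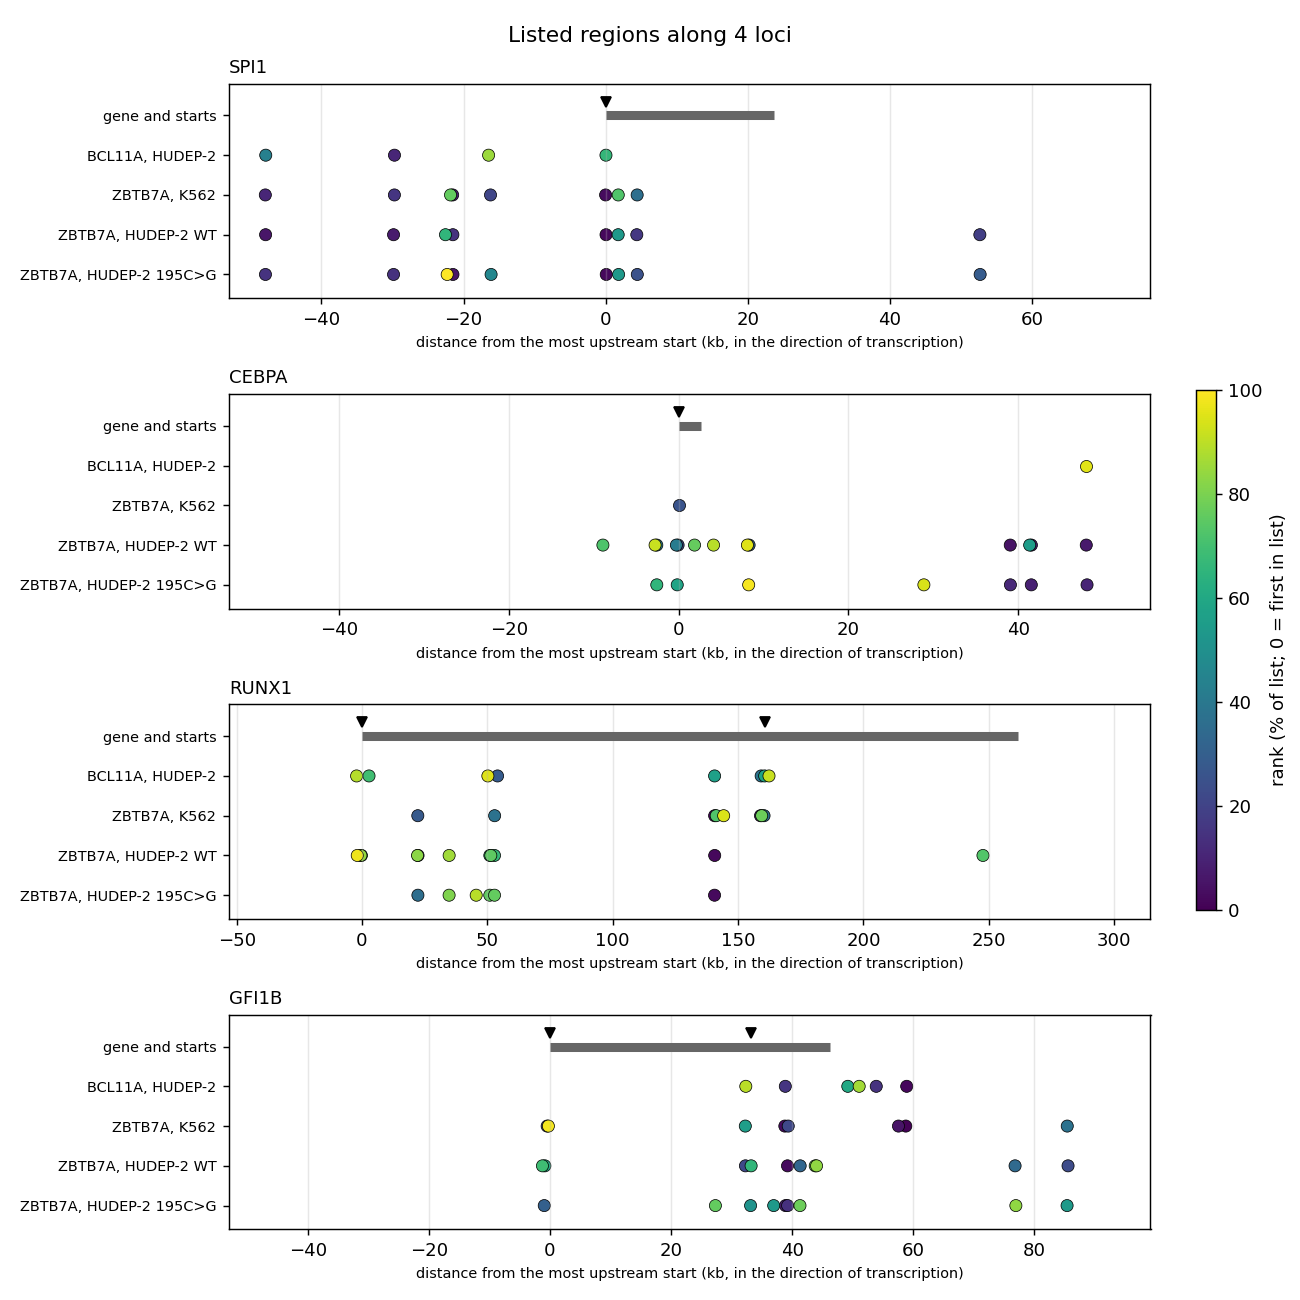
Position of each listed region in kb from the most upstream start (x axis) at SPI1, CEBPA, RUNX1 and GFI1B, with 1 line per peak list, the gene as a grey bar, its starts as triangles, and the colour giving the rank as a percent of the list. The RUNX1 region near 140.6 kb and the GFI1B region near 38.9 kb appear in all 4 lists. The CEBPA regions from 39.07 kb on appear in WT and 195C>G and not in K562, and BCL11A has only that near 48.05 kb.

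RUNX1, needed to form blood stem cells and later for megakaryocytes, has 2 promoters on chromosome 21, and the lists differed between them. At the outer one WT had 2 overlapping regions, the better of them 234 bp before the start with a signal of 26.6 and rank 17281, and no other list had a region within 1 kb. At the inner one BCL11A had a region 11 bp before the start (34888517 to 34888886, hg38, score 25.4, rank 7520) and K562 one 246 bp before it (34888744 to 34889128, rank 6380). The HUDEP-2 ZBTB7A lists had none there. About 1.4 to 1.7 kb before the inner start, BCL11A (rank 4939) and K562 (rank 1736) again had overlapping regions, and the HUDEP-2 ZBTB7A lists again had none.

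Its highest-ranked ZBTB7A region lay in the intron between the promoters, 20 kb before the inner start, and was listed in all 4 lists. It stood at rank 365 in K562 (34908383 to 34908884, hg38), at rank 751 in WT (signal 113) and at 511 in the 195C>G list (signal 130). BCL11A had a region inside it with a score of 26.3 and rank 7269. Near the outer promoter, 22.3 kb into the gene, the 3 ZBTB7A lists had overlapping regions at ranks 4838, 4910 and 6716, without BCL11A. The best BCL11A region of the gene, 54.08 kb into it (score 47.3, rank 3701), had no counterpart in the other lists. RUNX1 introns are known to hold stem cell enhancers, and the relation of these regions to them was not tested.

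ERG and FLI1, a closely related pair of ETS factors of stem cells and megakaryocytes, had no promoter region in any list. At ERG, which has 4 annotated starts on chromosome 21, 195C>G had an intronic region 21.98 kb after the innermost start with a signal of 57.0 and rank 4743, overlapped in WT with a signal of 29.6 and rank 14641. BCL11A had 2 overlapping regions in an intron near the 3′ end, at ranks 7206 and 7207 with the same score of 26.5, and WT a region of rank 19692 there. K562 had no region in the ERG locus.

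FLI1 on chromosome 11 lay in a long stretch with no region in any list. From the last region before the gene to the first after it, this stretch was 3.66 Mb in the BCL11A list, 3.55 Mb in K562, 1.88 Mb in WT and 2.86 Mb in 195C>G. Stretches at least as long numbered 103 of 12887, 104 of 17308, 182 of 36411 and 112 of 18760 over the whole genome. In every list the stretch also held ETS1, the neighbouring ETS-family gene. Of 2486 protein-coding genes whose loci were at least as long as that of FLI1, 500, or 20.1%, likewise had no region in any list.

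GFI1B, the repressor gene of red cells and platelets, had the single best-ranked region of the set in the BCL11A and K562 lists. This region lay downstream of the gene on chromosome 9, 25.77 kb after the inner start in the BCL11A list (133004234 to 133004725, hg38, score 262, rank 263) and 25.61 kb after it in K562 (133004029 to 133004617, rank 82). The WT and 195C>G lists had no region there. K562 had a further region 24.41 kb after that start (rank 924), and BCL11A 3 more between 16.04 and 20.73 kb, the best with a score of 77.1 and rank 1894. Their places were free of ZBTB7A regions in WT and 195C>G as well. GFI1B is known to have downstream enhancers, and whether these regions are among them was not tested. The K562 and HUDEP-2 ZBTB7A lists share the antibodies but differ in cell line, in pooling and in how regions were called, which cannot be told apart.

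Inside GFI1B, an intron held regions of all 4 lists. There K562 had rank 514 (132984057 to 132984623), BCL11A rank 1994 (score 74.2), WT rank 1114 (signal 99.8) and 195C>G rank 1520 (signal 91.7). K562 and 195C>G each had another region beside it, at ranks 3772 and 2582, which the single broad WT region also overlapped. At the inner start, BCL11A (score 15.8, rank 11553), K562 (rank 9639) and WT (signal 42.8, rank 7939) had overlapping regions 811 to 899 bp before it. The 195C>G region, 28 bp before the start (signal 39.5, rank 9618), lay at another place, where WT also had one (rank 23998). At the outer start the regions of K562 (rank 3710), WT (rank 21990) and 195C>G (rank 5715) were also within 1 kb of a start of TSC1, a growth control gene, and belong to either gene.

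GFI1, the related repressor gene of granulocytes and lymphocytes, had few regions, all ranked low. On chromosome 1, K562 had 1 region, 473 bp after the middle start at rank 17303 of 17331, and WT 1 overlapping it, with a signal of 20.4 and rank 24643. WT had a further region 28.0 kb beyond the gene (rank 20425). The only 195C>G region lay in an intron 1017 bp before the innermost start (signal 26.6, rank 17940), just outside the 1 kb limit, and BCL11A had none in the locus.

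ETV6, a repressor gene needed for blood stem cells in bone marrow, had regions at its promoter and hardly elsewhere in a gene of 245.5 kb. On chromosome 12, K562 had promoter regions at ranks 11975 and 12256, WT at ranks 12785 (signal 32.3) and 20492 (signal 23.5), and 195C>G at rank 7434 (signal 45.6). The 195C>G region overlapped both WT regions. A K562 region in an intron (rank 15585) was the only other one, and no BCL11A region was listed in the locus.

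IKZF1, the gene of the lymphoid factor Ikaros, had most of its regions in introns and most of them in WT. On chromosome 7, WT had 15 regions, 195C>G 6, K562 4 and BCL11A 1. The best of WT and 195C>G stood in an intron 34.7 kb after the outer start, at rank 1768 in the 195C>G list (signal 86.4), at 4765 in WT (signal 55.5) and at 10666 in K562 (50338757 to 50338878, hg38). In K562 the best-ranked region was another, in an intron 1819 bp after the third start (50310363 to 50310636, rank 8675), overlapped in WT (rank 13646) and 195C>G (rank 14307). A further intronic place, 29.4 kb after the outer start, was listed in WT (rank 8100) and 195C>G (rank 3345). The promoter regions ranked lower, at ranks 15026 in K562 and 20430 and 27260 in WT, with none in 195C>G. The BCL11A region, near the 3′ end of the gene (50393706 to 50393830, score 55.2, rank 3009), was overlapped by a WT region of rank 6876.

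**Figure D4:**
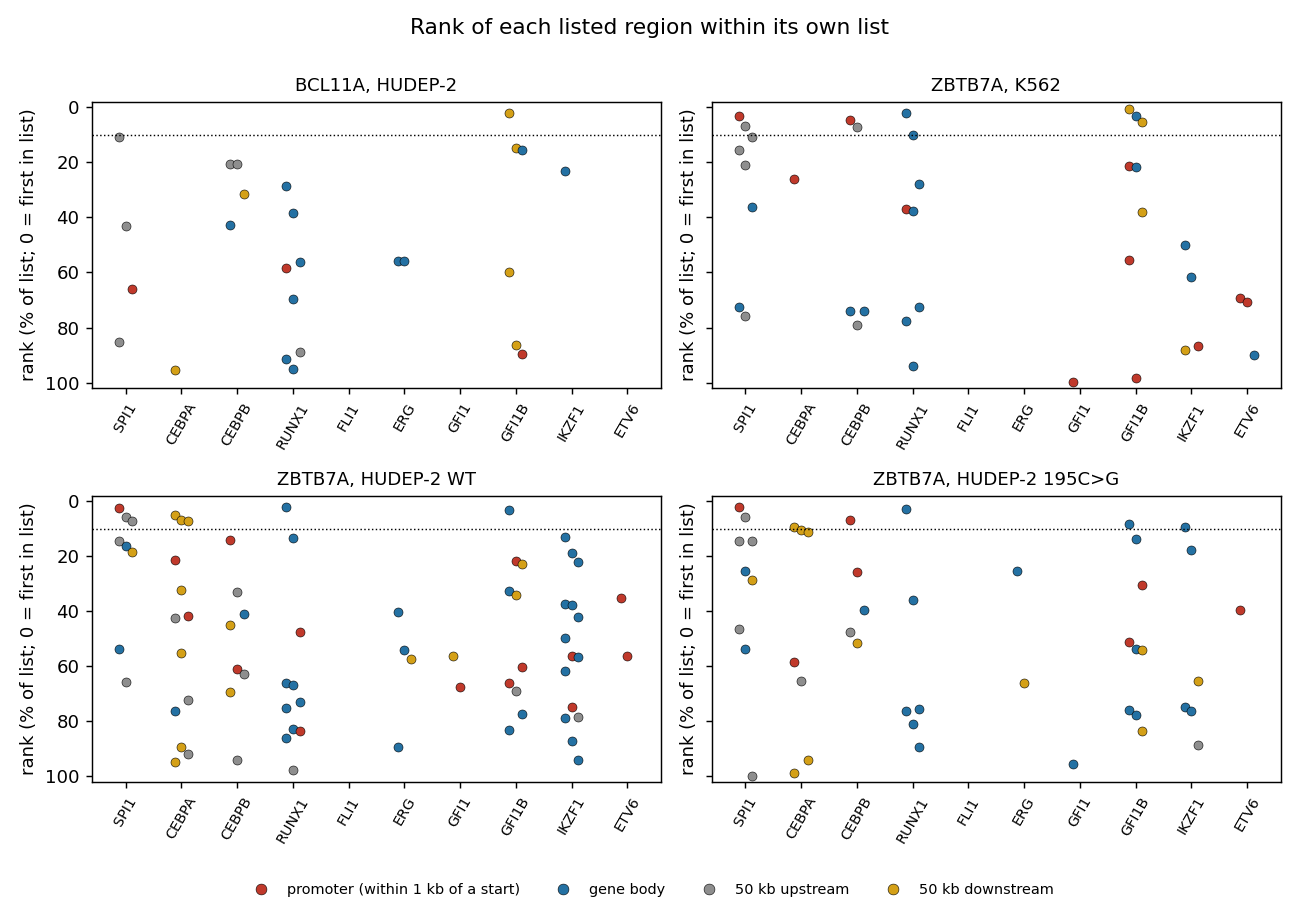
Rank of each region as a percent of its list, with 0 the first in the list (y axis; file order in K562), at the 10 genes (x axis) in each list, coloured by place, with a dotted line at 10%. Regions within the first 10% number 1 of 26 (BCL11A), 8 of 38 (K562), 8 of 73 (WT) and 7 of 46 (195C>G).

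The overlap of the lists at these loci was set beside that of each whole list. Of the 73 WT regions, 47 (64.4%, 95% Clopper-Pearson interval 52.3 to 75.3%) were overlapped by at least 1 bp in 195C>G, against 54.3% of all WT regions and 39.1 predicted from the rank deciles of the 73. All 8 WT regions at SPI1 were overlapped, where the rank deciles predicted 6.32, and both at ETV6, with 1.10 predicted. At CEBPA 10 of 13 were overlapped, with 7.19 predicted, and chromosome 19 as a whole gave 40.0%. At CEBPB it was 6 of 8 (4.02 predicted) and at RUNX1 7 of 11 (4.84). For GFI1B it was 7 of 10 (5.50) and for ERG 2 of 4 (1.73). At IKZF1 it was 5 of 15, with 7.60 predicted, and at GFI1 0 of 2, with 0.84 predicted. In reverse, WT overlapped 39 of 46 195C>G regions (84.8%, 71.1 to 93.7%), against 89.3% of that list. Each arm is 1 library, so these differences have no test. Some WT regions overlapped each other, at CEBPA among other genes, and merging these left 60 of the 73. Both WT regions at ETV6 were overlapped by the same 195C>G region. The intervals here and below count every region as separate, so they are too narrow where regions repeat a place.

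Of the 26 BCL11A regions, 12 (46.2%, 26.6 to 66.6%) were overlapped in K562, against 31.9% of all BCL11A regions, and of the 38 K562 regions 14 (36.8%, 21.8 to 54.0%) by BCL11A, against 24.1%. Without chromosome 11, 10 of 22 BCL11A regions (45.5%, 24.4 to 67.8%) were overlapped in WT, against 57.5%, and 4 of 22 (18.2%, 5.19 to 40.3%) in 195C>G, against 39.6%. Rank deciles predicted 8.07 of the 26 for K562, 12.5 of the 22 for WT and 8.51 of the 22 for 195C>G. Each of these 4 intervals holds the value of the whole list. Between ZBTB7A lists, 19 of 30 K562 regions (63.3%, 43.9 to 80.1%) were overlapped in WT, against 62.5%, and 20 of 65 WT regions (30.8%, 19.9 to 43.4%) in K562, against 35.9%.

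Merged over the lists, the 8 loci away from chromosome 11 held 73 separate places, of which 33 were listed once, 25 in 2 lists, 12 in 3 and 3 in all 4. The 3 places common to all lists were the CEBPB gene, the RUNX1 intron and the GFI1B intron. WT with 195C>G alone made 16 places, WT on its own 15, the 3 ZBTB7A lists without BCL11A 9 and BCL11A on its own 8. Such places were not counted over all genes, and the lists differ in length. The numbers therefore describe these loci and show nothing particular to them. BCL11A with K562 alone made 3 places, those of the inner RUNX1 promoter, the neighbouring RUNX1 intron and the GFI1B downstream region.

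The limits of 1 kb and 50 kb left some regions close by. A BCL11A region of rank 90 (score 455, chromosome 21, 35106176 to 35106598), overlapped in the ZBTB7A lists at ranks 2875, 23766 and 3893, lay 57.1 kb upstream of RUNX1. Upstream of GFI1 by 58.1 kb, in an intron of EVI5, stood regions of rank 1640 (BCL11A), 13702 (WT) and 799 (195C>G). Just outside the CEBPA locus, 50.3 to 50.5 kb beyond the gene, the best regions had ranks 7509 (BCL11A), 8067 (WT) and 1691 (195C>G). Farther out, 58.1 kb beyond the gene, K562 also had a region (rank 7107), overlapped in WT (rank 6579) and 195C>G (rank 16407). Measured from the nearer end of each gene, the outermost regions inside the limits were those at PSMC3, 47.8 to 47.9 kb from SPI1.

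Relatives and partners of these factors gave the wider setting. Of 25 family relatives, 5 had a BCL11A promoter region, 12 one in the K562 list, 17 in that of WT and 13 in that of 195C>G. These are 20%, 48%, 68% and 52% of the 25, beside 24.4%, 33.2%, 44.9% and 29.1% of all genes, so the BCL11A share lies below its background. ETV3, an ETS-family repressor gene, stood at ranks 1737, 966 and 551 in K562, WT and 195C>G, and CEBPG, a CEBP partner, at 98, 1893 and 2567. CEBPD stood at 1940 (BCL11A), 2104 (WT) and 2046 (195C>G), ETV2 at 2143 in K562, and ELF2 and CBFB, the RUNX partner, at 1532 and 3868 for BCL11A. All 4 IKZF relatives had a promoter region in WT, the longest list, against 2 (195C>G), 1 (K562) and 0 (BCL11A). That of IKZF4 in WT stood at rank 34178 of 36435. Among the other relatives, WT had one for 9 of 15 ETS factors, 2 of 3 CEBP factors and 2 of 3 of RUNX2, RUNX3 and CBFB.

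Of 26 other lineage factors, 9 had a BCL11A promoter region, 15 a K562, 13 a WT and 11 a 195C>G region. These are 34.6%, 57.7%, 50% and 42.3%, beside the same 24.4%, 33.2%, 44.9% and 29.1% of all genes, and the WT share is near its background. The leaders were NFE2 (rank 10), GATA2 (193) and LYL1 (285) for BCL11A, TCF3 (103), EGR1 (206) and KLF1 (1146) in K562, LYL1 (55), KLF1 (153) and NFE2 (256) in WT, and NFE2 (75), KLF1 (253) and LYL1 (430) in 195C>G. Of 15 corepressor genes, 8 had one in the BCL11A list, 9 each in K562 and WT, and 6 in the 195C>G list, which are 53.3%, 60%, 60% and 40% beside those shares. They were led by CTBP2 (1090), CBFA2T3 (1657) and KDM1A (2410) for BCL11A, MTA2 (44), CBFA2T3 (1053) and HDAC2 (2060) in K562, HDAC2 (358), MTA2 (504) and CTBP2 (1146) in WT, and MTA2 (306), HDAC2 (636) and CTBP2 (2486) in 195C>G.

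Genes whose promoter ranks were most like those of a member were found by the smallest maximum difference in rank percentile, over the lists in which the member had a promoter region. For SPI1 this was KIAA1429, which differed by at most 2.04 percentile points over 4 lists. Over 3 lists it was DYRK1A for CEBPA (3.29 points), C17orf80 for CEBPB (1.92), TRIM47 for RUNX1 (4.44) and CHMP1A for ETV6 (1.58), and for GFI1B over 4 lists CMPK1 (6.84).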

How the data were processed

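The submitters' processing notes name Trimmomatic 0.3.2, Bowtie2 2.2.9 and the build hg38 (GRCh38). The authors deposited 4 peak lists: per the file labels, the BCL11A and K562 lists are pooled sets filtered by the irreproducible discovery rate, and the WT and 195C>G lists are SPP calls in 1 library. The deposited BCL11A list holds a score per region. The deposited WT and 195C>G lists hold a summit, a signal and a false discovery rate as −log10. No read count or depth is stated, so precision beyond counting error is unknown.

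Identical regions on standard chromosomes were counted once (duplicates removed: BCL11A 91, K562 852, WT 416, 195C>G 185). The K562 list was ranked by file order, which is assumed to fall in strength: 79.2% of its first decile and 53.9% of its last were overlapped in WT. Positions on chromosome 11 follow a modified sequence in both single-library lists. For SPI1 and FLI1 in the hg38 lists, 4928 bp were added to the annotation, the most common difference from RefSeq gene ends (529 of 1340 genes). The shifted 3′ end of FLI1 matched RefSeq exactly, and its start differed (RefSeq minus shifted, -1403 bp). For SPI1, on the minus strand, the start differed by -29 bp and the 3′ end by 2 bp. Lists of different builds were not overlapped on chromosome 11. Overlap needed 1 bp. Predictions from rank deciles sum the mean overlap of each region's decile.

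No test was run between groups, because lists are pooled or from single libraries. Members and lists were chosen with earlier results of these data known. Named genes were all members, the 3 best-ranked promoters of each list of other genes, neighbours whose promoter held a flank region, and the most alike gene. Alternatives varied the promoter window, the flank, list depth, merging and overlap. Overlap and promoter assignment were tested on simulated data. Python 3.11.15, pandas 2.3.3 and scipy 1.17.1 were used.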

Additional observations from a re-analysis of the deposited data

How the results depend on the processing

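Of 44 alternative values, 35 stayed within 1.5 times the main count or within the interval of the main share. With the first 50% of each list by rank, genes with a promoter region numbered 0 instead of 3 for BCL11A and 5 instead of 8 in K562. Among all genes the shares fell as well, to 13.8% from 24.4% for BCL11A and to 20.8% from 33.2% in K562. Regions at the loci numbered 12 (BCL11A), 20 (K562), 34 (WT) and 23 (195C>G) instead of 26, 38, 73 and 46, as fewer regions enter. With 10 kb on each side, 195C>G regions at the loci numbered 30 instead of 46. With reciprocal overlap of at least 50%, 19.2% of BCL11A regions were overlapped in K562 instead of 46.2%, and 22.7% in WT instead of 45.5%. With a 5 kb promoter window CEBPB joined the BCL11A genes, and GFI1 and IKZF1 joined the 195C>G genes. That window took in 29.3% of all genes for BCL11A and 34.2% for 195C>G. No paired analysis was possible because no result comes from a test across samples, and no replicate could be left out of the pooled lists. Depth is unknown, so a region that is not listed is not shown to be unbound.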
